A study of Mus musculus with 10 samples.

Results

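Genes for respiratory complexes II to V were read out in RNA-seq of adult mouse left atrium, comparing controls labelled wild type with mice labelled as knockouts of the T-box transcription factor gene Tbx5. Members were the rows of the gene table whose symbols begin with Uqc, Atp5 or Cox4 to Cox8, together with Cyc1 and Sdha to Sdhd. This gave 50 of the 23337 genes in the table, with 4 in complex II, 10 in complex III, 19 in complex IV and 17 in complex V. Of the 50, 45 encode structural subunits. The other five matched by symbol only. Uqcc (Uqcc1) is an assembly factor and Cox7a2l a supercomplex factor. Cox4nb is an older symbol for a subunit of the endoplasmic reticulum membrane complex, Atp5sl is not an ATP synthase subunit, and Atp5s is the coupling factor B gene. In all, 45 of the 50 had enough reads to be tested.

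The control group held 4 libraries, labelled Tbx5 +/+, from 2 male and 2 female mice. The libraries labelled knockout numbered 6, labelled Tbx5-/-, from 3 female and 3 male mice. All animals were on a mixed C57B6 and 129 background. By the protocol, a tamoxifen-inducible Cre under the R26 promoter, which is active in all cell types, was used to cut exon 3 out of Tbx5 in the knockouts. Tamoxifen was injected for 3 days at 0.167 mg per day and tissue was taken 1 week later. Whether control mice carried Cre or received tamoxifen is not given in the sources used here. Sample labels put the age at 8 to 10 weeks and the extraction protocol at 6 to 8 weeks. The protocols speak of right and left atrial tissue, and every sample label says left atrium.

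Complex II (succinate dehydrogenase) passes electrons from succinate to ubiquinone, complex III passes them on to cytochrome c, and complex IV (cytochrome c oxidase) passes them to oxygen. Complexes III and IV pump protons, and complex V (ATP synthase) uses the return flow of protons to make ATP, on which the beating heart depends. Several small subunits of complex IV exist as a form found mainly in heart and skeletal muscle and a form found in most tissues. Complexes III to V also hold subunits encoded by mitochondrial DNA, in the catalytic core of complexes III and IV and in the membrane part of complex V. Their 6 genes were not found by symbol in the gene table, so they could not be analysed here.

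Libraries held 5701670 to 7697556 counted reads. Log-scale profiles correlated at 0.964 to 0.986 within groups and at 0.888 to 0.949 between groups, across genes. The normalized Tbx5 count was 1077, 992, 785 and 901 in the controls, and 1497, 1991 and 2460 (lowest, median and highest) in the libraries labelled knockout, so the groups did not overlap and the count was higher where the gene was labelled as removed (log2 fold change 1.03, SE 0.14, edgeR adjusted p 4.78e-05). This count covers the whole gene and does not measure the loss of exon 3. All group names are those of the labels. Of the cardiomyocyte markers 5 of 10 rose and 4 fell, and their summed normalized count was 741756 to 937158 in controls and 409913 to 556488 in knockouts. Much of that sum was Ttn (366267 to 517546 in controls and 104290 to 186763 in knockouts); the other 9 markers summed to 375489 to 431613 and 286682 to 388887, which overlap, and the list's median log2 fold change was 0.03. Myl7 (-4.03), Ryr2 (-2.21) and Mybpc3 (1.26) had the smallest adjusted p among them, as log2 fold changes. Of 8 fibroblast markers 6 rose and 1 fell, with sums of 31841 to 35424 and 64142 to 96265. Col1a2 rose by 1.68, Col3a1 by 1.66 and Tcf21 by 1.29, while Pdgfra fell by 0.54 and Dcn did not pass. Much of the sum was collagen, with Col3a1 alone at 10792 to 14983 in controls and 31794 to 55789 in knockouts. All 8 macrophage markers rose, with sums of 3152 to 4394 and 7440 to 11119; C1qb rose by 1.32, Emr1 by 1.10 and Lyz2 by 1.39. Of 6 endothelial markers 3 rose and 1 fell, with sums of 6607 to 7305 and 7638 to 8335; Emcn rose by 0.95, Tie1 by 0.28 and Kdr fell by 0.49. No marker of white adipocytes passed the filter on low counts (sums of 3.5 to 130 and 4.7 to 33.2), and Ucp1, which defines brown fat, was at 0 in all controls and at most 0.949 in a knockout. Of 2 brown adipocyte markers tested Cidea rose by 1.00, and of 3 skeletal muscle markers tested Tnni2 fell by 1.96. Skeletal muscle myosin Myh4 did not exceed 2.37 in any library. The part of these cell types in the results below was not tested. In such bulk tissue, fewer cells of a type and less RNA per cell cannot be told apart.

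Most nuclear genes for complexes II to V did not pass the threshold, and those that did were spread over all 4 complexes. Of the 45 tested members, 9 rose in the knockout: Cox6c, Cox6a1, Atp5j2, Cyc1, Sdhd, Cox4nb, Uqcrb, Uqcrc2 and Cox6b1. A further 3 fell: Cox7a1, Atp5sl and Atp5e. The remaining 33 did not pass an adjusted p of 0.05, with log2 fold changes between -0.22 and 0.29. The 9 that rose stand beside a background of 20.8% of all 13191 genes tested, and the 3 that fell (6.67%) beside one of 21.8%. Members called in either direction came to 26.7%, beside 42.6% of all genes. In 8 of the 45 (17.8%) the groups did not overlap, beside 31.3% of all genes tested. The median log2 fold change was 0.09 over the members and 0.00 over all genes tested, and in 43 of the 45 it lay within 0.5 of 0.

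None of the 12 called members changed sign in any of 23 alternative fits, and Cox6c and Cox7a1 passed the threshold in all 23. The balance of rising and falling calls did depend on the scaling. It was 9 to 3 with TMM factors, 16 to 1 with library size alone, which moves the median of all genes by 0.14, and 6 to 12 with offsets for transcript length and GC content. With those offsets the members' median was -0.16, beside -0.03 over all genes. The authors' deposited table calls 13 members at an adjusted p under 0.05, of which 10 are higher and 3 lower; these are the same 12 in the same directions and Uqcrc1 (log2 fold change 0.18, adjusted p 0.0153).

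**Figure D1:**
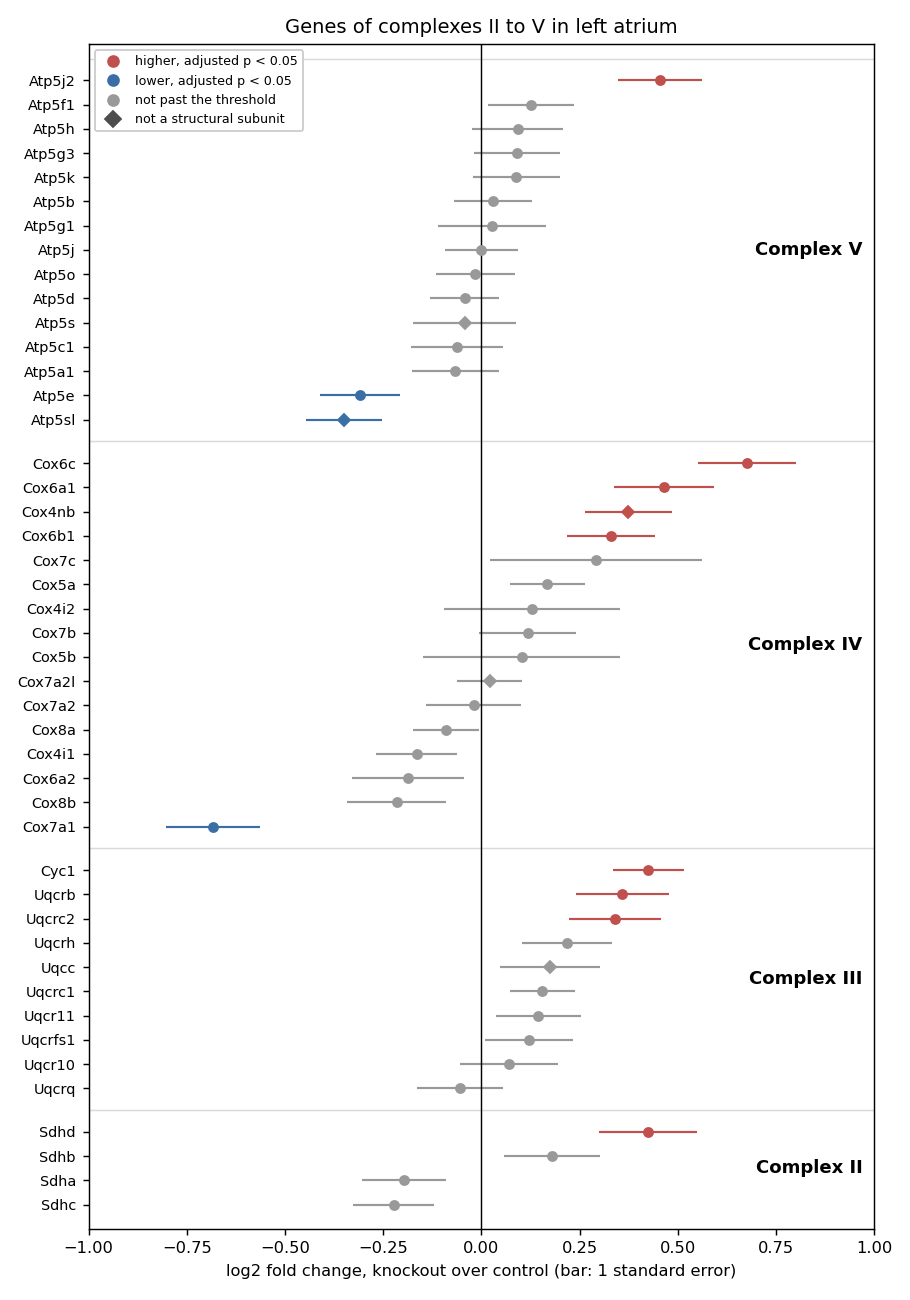
Log2 fold change of each of the 45 tested members, knockout over control, by complex, with bars of 1 standard error; circles are structural subunits and diamonds are other genes. Most members lie within 0.5 of 0, and Cox6c (0.68) and Cox7a1 (-0.68) lie farthest out on either side.

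In complex II, 1 of the 4 subunits passed the threshold. Gene positions below are those of GENCODE M21 on GRCm38 (mm10). Sdhd (chr9:50596357-50603812), a membrane anchor of the complex, rose. Its normalized count was 2126, 2658, 2741 and 2631 in controls, and 2917, 3374 and 4279 (lowest, median, highest) in knockouts. Every knockout library lay above every control. The log2 fold change was 0.43 (SE 0.13, adjusted p 0.0136), equal to 1.34-fold. Sdhc, the partner anchor, had means of 2785 ± 239 (SD, n = 4) and 2425 ± 254 (SD, n = 6), with a log2 fold change of -0.22 (SE 0.10, adjusted p 0.0959 in edgeR). Sdha, the flavoprotein that holds the succinate site, was at -0.20 (SE 0.11, adjusted p 0.157). Sdhb, the iron-sulphur subunit, was at 0.18 (SE 0.12, adjusted p 0.257). For these 3 the groups overlapped. Sdha passed the threshold without knockout M3 (log2 fold change -0.26, adjusted p 0.0368). With length and GC offsets Sdhd no longer passed (0.25, adjusted p 0.0622) and Sdhc did (-0.26, adjusted p 0.0492).

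In complex III, 3 of 10 tested members rose (30.0%, beside 20.8% of all genes tested) and none fell (beside 21.8%). The log2 fold change was above 0 in 9 of the 10, all but Uqcrq (-0.05), with a median of 0.17; with length and GC offsets it was above 0 in 4, with a median of -0.03. Cyc1 (chr15:76343523-76346260) encodes cytochrome c1, which hands electrons to cytochrome c. Its normalized count was 2360, 2703, 2599 and 2860 in controls and 3256, 3591 and 3863 (lowest, median, highest) in knockouts. The groups did not overlap, and the log2 fold change was 0.43 (SE 0.09, adjusted p 0.00202). Uqcrc2, a core protein, stood at 5313, 5795, 6203 and 6225 in controls and at 6181, 7604 and 8960 in knockouts. The lowest knockout, M1, lay within the control range, and the log2 fold change was 0.34 (SE 0.12, adjusted p 0.0317). Uqcrb, an accessory subunit, stood at 704, 806, 906 and 818 against 870, 1040 and 1235 (log2 fold change 0.36, SE 0.12, adjusted p 0.0259). Here too the lowest knockout, F2, lay within the control range.

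The calls of Uqcrc2 and Uqcrb lay near the threshold and were lost when some of the libraries were left out, 1 at a time. The log2 fold change was then 0.28 to 0.41 for Uqcrc2 and 0.32 to 0.44 for Uqcrb over all such fits. Uqcrc2 missed the threshold without control M1 (adjusted p 0.0704), without knockout F1 (0.0589) and without knockout M3 (0.0553). Uqcrb missed it without control M1 (0.0664) and without knockout M2 (0.0516). The paired core protein Uqcrc1 did not pass (log2 fold change 0.16, SE 0.08, adjusted p 0.15), although its knockouts, at 4813 to 5209, all lay above the controls, at 4142 to 4805; DESeq2 did call it (0.18, adjusted p 0.0143). The Rieske iron-sulphur protein gene Uqcrfs1 was at 0.12 (SE 0.11, adjusted p 0.412).

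Within complex IV the 16 tested members spanned the widest range, from -0.68 to 0.68, with 4 higher and 1 lower. Cox6c (chr15:35925886-35938246), a small membrane subunit, rose. It stood at 3053, 3274, 3574 and 3315 in controls and at 4594, 5127 and 6706 (lowest, median, highest) in knockouts. No knockout overlapped a control, and the log2 fold change was 0.68 (SE 0.12, adjusted p 0.000653), equal to 1.60-fold. Cox7a1 (chr7:30184144-30186078), the muscle form of subunit VIIa, fell. It stood at 4297, 4455, 4914 and 5470 in controls and at 2557, 2976 and 3677 in knockouts. Again the groups did not overlap, and the log2 fold change was -0.68 (SE 0.12, adjusted p 0.000444), equal to 1.60-fold lower in knockouts.

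Cox6b1, the common form of the subunit that faces the intermembrane space, stood at 3707, 4206, 4203 and 4655 in controls and at 4516, 5339 and 6466 in knockouts. Knockout M1 was the one library inside the control range, and the log2 fold change was 0.33 (SE 0.11, adjusted p 0.029). It missed the threshold without control M1 (adjusted p 0.0705) and with length and GC offsets (0.06, adjusted p 0.609). Cox4nb, which is no oxidase subunit, stood at 94.6, 119, 126 and 117 in controls and at 138 to 171 in knockouts (log2 fold change 0.37, SE 0.11, adjusted p 0.0145), with no overlap. Among members that did not pass, Cox4i1, the common form of subunit IV, was at -0.17 (SE 0.10, adjusted p 0.22) and Cox5a at 0.17 (SE 0.10, adjusted p 0.177). Cox4i1 did pass with length and GC offsets (-0.46, adjusted p 0.00139), and Cox5a did not (-0.07, adjusted p 0.511). The lung and hypoxia form of subunit IV, Cox4i2, was scarce, at 14.6 to 23.7 normalized counts in controls and 16.1 to 26.1 in knockouts. The testis forms were at the floor: Cox6b2 reached at most 10 reads in a library, Cox7b2 at most 3, and Cox8c none.

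ATP synthase subunits had the highest summed count of the 4 complexes. Per kilobase of transcript, Atp5b (17448 normalized counts in controls) had the highest level of all members. Atp5b encodes the catalytic beta subunit. It stood at 33017, 32367, 32550 and 35791 in controls and at 32100, 34542 and 37106 in knockouts, with a log2 fold change of 0.03 (SE 0.10, adjusted p 0.838). The alpha subunit gene Atp5a1 was at -0.07 (SE 0.11, adjusted p 0.662) and the gamma subunit gene Atp5c1 at -0.06 (SE 0.12, adjusted p 0.714). In both the groups overlapped. Of 15 members tested, 1 rose (6.67%) and 2 fell (13.3%), beside 20.8% and 21.8% of all genes tested. Among the 13 tested structural subunits 1 rose and 1 fell.

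Atp5j2 (chr5:145183698-145192062), a subunit of the membrane part, rose from 1241, 1523, 1556 and 1612 in controls to 1793, 2026 and 2443 (lowest, median, highest) in knockouts. The groups did not overlap (log2 fold change 0.45, SE 0.11, adjusted p 0.00377). Atp5e (chr2:174461072-174464105), the epsilon subunit of the central stalk, fell from 2891, 3542, 3669 and 3987 to 2714, 2857 and 3225. Control M1 lay inside the knockout range, and the log2 fold change was -0.31 (SE 0.10, adjusted p 0.0242). Atp5e missed the threshold without control M2 (adjusted p 0.0607), control F1 (0.0816), control F2 (0.117) or knockout F2 (0.0519). It also missed with library size alone (log2 fold change -0.17, adjusted p 0.164) and with no filter on low counts (adjusted p 0.0549). Atp5sl, which is not a subunit, fell from 268 to 291 in controls to 193 to 251 in knockouts (log2 fold change -0.35, SE 0.10, adjusted p 0.0101), without overlap; with library size alone the adjusted p was 0.0683.

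**Figure D2:**
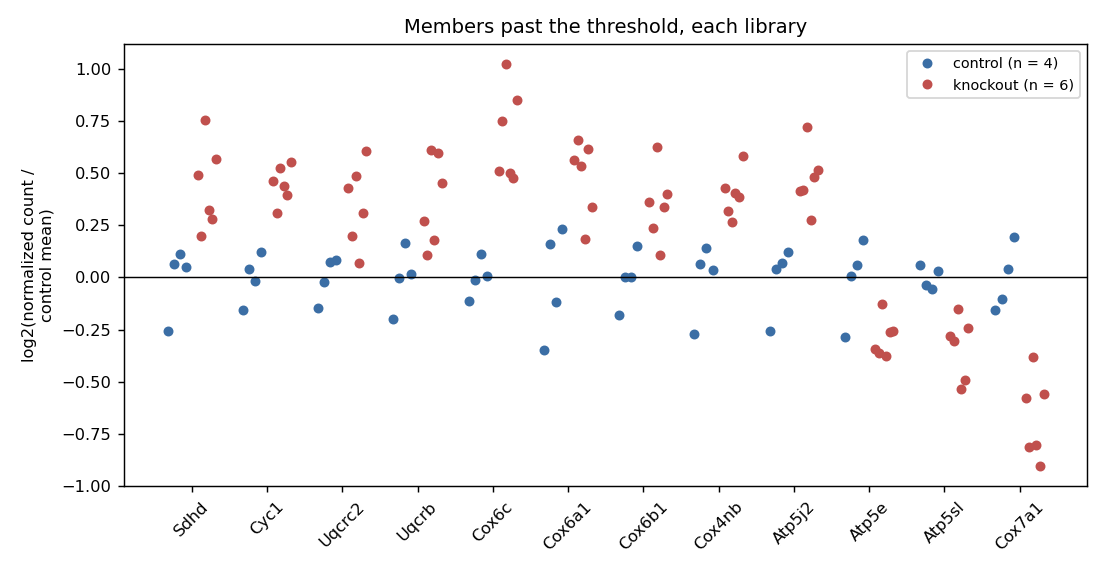
Normalized count of the 12 members past the threshold in each library, as log2 of the ratio to the control mean of the same gene; blue, 4 controls, red, 6 knockouts. Groups separate fully for Sdhd, Cyc1, Cox6c, Cox4nb, Atp5j2, Atp5sl and Cox7a1, and overlap for Uqcrc2, Uqcrb, Cox6a1, Cox6b1 and Atp5e.

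Summed over its subunits, complex III had the largest ratio of mean levels on the deposited scaling. Its summed normalized count was 28382 ± 2246 (SD, n = 4) among controls against 33438 ± 3196 (SD, n = 6) among knockouts, a ratio of 1.18. Knockout M1, at 29329, lay below the highest control, at 30799, and the other 5 knockouts lay above it, so the groups overlapped. For complex II the ratio was 1.04, for complex IV 1.01 and for complex V 1.01. The median log2 fold change of the tested members is another measure. In the main fit it was -0.01 in complex II, 0.17 in complex III, 0.11 in complex IV and 0.00 in complex V. In the same order it was -0.15, -0.03, -0.12 and -0.17 with length and GC offsets. Complex III was thus highest in both fits, but with the offsets every median was negative. In complex V the sums were 90638 ± 4361 (SD, n = 4) and 91876 ± 7746 (SD, n = 6). Sums were not scaled by transcript length, so abundant genes weigh most. Atp5b and Atp5a1, with control means of 33431 and 27175, held most of the complex V sum.

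The same libraries often stood at the ends of the range among the abundant members. How often they do so over all genes was not counted, so this order is not shown to be particular to the members. Among the 38 members with a mean of at least 500 normalized counts, control F2 was the highest control for 30 and control M1 the lowest for 31. Knockout F3 was the highest knockout for 24 and knockout M1 the lowest for 25. Their median coefficient of variation was 9.23% in controls and 11.8% in knockouts, beside 8.77% and 12.3% over the 2348 tested genes of at least the same mean.

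**Figure D3:**
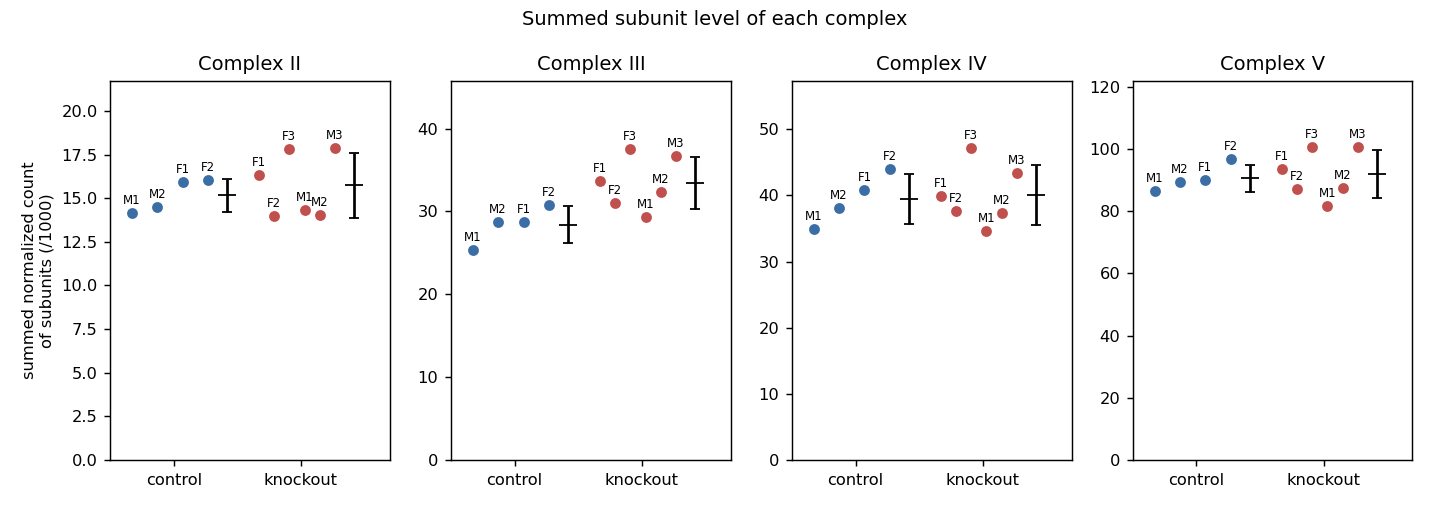
Summed normalized count of the subunits of each complex in every library, divided by 1000, with each library's sex and number; bars give the mean and 1 SD of 4 controls and 6 knockouts. Knockouts F3 and M3 are the highest libraries in all 4 complexes apart from control F2 in complex IV, and the group ranges overlap in every complex.

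The balance between muscle and common forms of complex IV subunits was followed for VIa, VIIa and VIII. In control atrium the muscle form prevailed in all 3 pairs. Per kilobase of transcript, Cox6a2 stood 14.1 times above Cox6a1, Cox7a1 stood 3.29 times above Cox7a2, and Cox8b stood 6.65 times above Cox8a. In knockouts these ratios were 8.98, 2.08 and 6.09. The muscle form thus remained the more abundant in each pair.

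The Cox7a1 to Cox7a2 ratio of read counts was 2.09, 1.80, 1.88 and 2.10 in controls, and 1.08, 1.25 and 1.37 (lowest, median, highest) in knockouts. Every knockout lay below every control. The mean log2 ratio was 0.97 ± 0.11 (SD, n = 4) among controls against 0.31 ± 0.11 (SD, n = 6) among knockouts, a difference of -0.66 (two-sided exact permutation test, p = 0.00476, the smallest that 210 splits allow; adjusted over 3 pairs, 0.0143). In this pair the muscle form was the one that passed the threshold. Cox7a2 was at -0.02 (SE 0.12, edgeR adjusted p 0.91), with 2439 ± 260 (SD, n = 4) and 2443 ± 348 (SD, n = 6). With length and GC offsets Cox7a1 was at -0.97 and Cox7a2 at -0.30 (adjusted p 0.0129), and the difference between them was -0.67.

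The Cox6a2 to Cox6a1 ratio was 19.01, 13.1, 19.3 and 17.0 in controls, and 8.29, 10.6 and 14.2 in knockouts. Control M2, at 13.1, lay below knockout M3, at 14.2, so the groups overlapped. The difference in mean log2 ratio was -0.67 (exact permutation p = 0.0143, adjusted 0.0214), and the adjusted p was 0.0536 without control M1 and also without control F1. With any 1 library left out the exact test has fewer splits, and the part of this in the missed threshold was not tested. Here the common form was the one that passed. Cox6a1 stood at 282, 401, 331 and 421 in controls and at 407, 524 and 565 in knockouts (log2 fold change 0.46, SE 0.13, edgeR adjusted p 0.0092), whereas Cox6a2 was at -0.19 (SE 0.14, adjusted p 0.318). With length and GC offsets the roles were exchanged: Cox6a1 was at 0.16 (adjusted p 0.175) and Cox6a2 at -0.48 (adjusted p 0.00827), while the difference between them was -0.64.

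The Cox8b to Cox8a ratio was 4.17, 4.02, 5.27 and 4.09 in controls and 3.37, 3.71 and 4.89 in knockouts. The groups overlapped, and the difference in mean log2 ratio was -0.15 (exact permutation p = 0.305, adjusted 0.305). Cox8b was at -0.22 (SE 0.13, edgeR adjusted p 0.19) and Cox8a at -0.09 (SE 0.09, adjusted p 0.42). With length and GC offsets both passed, at -0.50 (adjusted p 0.00401) and -0.40 (adjusted p 0.000329). The fibroblast marker sum, much of it collagen, was higher in every knockout than in every control, although Pdgfra fell. The cardiomyocyte markers moved in both directions, as given above. The part of these markers' cell types in the ratios was not tested.

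**Figure D4:**
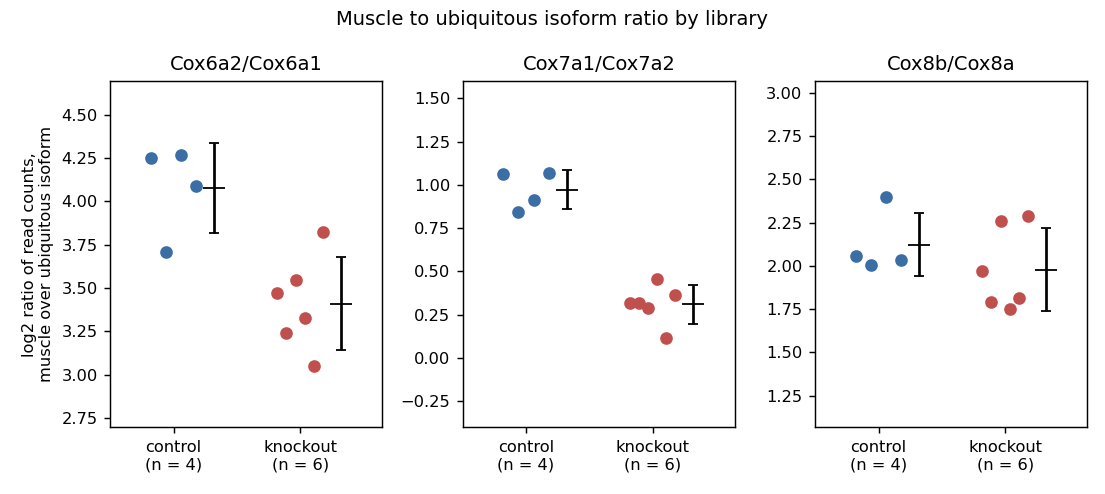
Log2 ratio of read counts of the muscle to the common form in each library, for 3 subunits of complex IV, with the mean and 1 SD; 4 controls in blue and 6 knockouts in red, each panel spanning the same number of log2 units. The ratio is lower in every knockout than in every control for Cox7a1 to Cox7a2, lower with overlap for Cox6a2 to Cox6a1, and not separated for Cox8b to Cox8a.

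Upstream sequence is shown for the subunit VIIa pair, which diverged, and for Cox6a1 and Sdhd. These 2 were the only members that rose with a match in the search below. Each run is the 250 bases before the RefSeq start on build GRCm38.p6, 5′ to 3′ on the gene's strand. They lie at chr7:30183921-30184170 (plus strand) for Cox7a1, chr9:79759854-79760103 (minus) for Cox7a2, chr5:115348959-115349208 (minus) for Cox6a1 and chr9:50603850-50604099 (minus) for Sdhd. Capitals mark matches to the motif of NRF1, a regulator of nuclear genes for mitochondria, on either strand.
Cox7a1: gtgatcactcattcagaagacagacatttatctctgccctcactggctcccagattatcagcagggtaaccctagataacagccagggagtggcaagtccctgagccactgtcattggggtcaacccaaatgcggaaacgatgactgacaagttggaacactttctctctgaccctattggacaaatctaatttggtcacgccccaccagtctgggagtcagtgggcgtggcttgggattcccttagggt
Cox7a2: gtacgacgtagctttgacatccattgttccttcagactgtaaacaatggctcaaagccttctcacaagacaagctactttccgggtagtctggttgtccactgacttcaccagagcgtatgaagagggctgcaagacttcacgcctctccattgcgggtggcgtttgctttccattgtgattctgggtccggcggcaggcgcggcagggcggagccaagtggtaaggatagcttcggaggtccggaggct
Cox6a1: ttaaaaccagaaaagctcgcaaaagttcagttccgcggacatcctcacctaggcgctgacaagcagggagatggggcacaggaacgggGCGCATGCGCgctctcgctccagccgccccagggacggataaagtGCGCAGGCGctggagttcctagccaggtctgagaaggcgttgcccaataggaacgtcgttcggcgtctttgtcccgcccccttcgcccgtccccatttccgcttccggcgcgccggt
Sdhd: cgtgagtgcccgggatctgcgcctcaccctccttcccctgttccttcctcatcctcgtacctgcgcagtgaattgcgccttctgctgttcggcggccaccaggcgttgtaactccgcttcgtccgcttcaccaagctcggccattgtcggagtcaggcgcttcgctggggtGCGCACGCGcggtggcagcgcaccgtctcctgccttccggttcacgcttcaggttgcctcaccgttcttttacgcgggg
Searches used the letters GCGCANGCG for NRF1, TCAAGGTCA for the estrogen-related receptors, AGGTGTGA for T-box factors and CTAAAAATA for MEF2, on both strands of these upstream windows. RefSeq promoters were matched for 36 of the 50 members. The NRF1 letters occurred in 8 of the 36 (22.2%), namely Atp5c1, Atp5g2, Atp5h, Atp5k, Atp5l, Cox6a1, Sdha and Sdhd, beside 5.86% of 27025 genes. The estrogen-related receptor letters occurred in 1, Atp5g3 (2.8%, beside 0.42%). The T-box and MEF2 letters were in none of the 36, beside 1.3% and 0.54% of all genes. At such low shares 36 promoters would often hold none, so no lack of these letters is shown. Of the 8 with NRF1 letters, Cox6a1 and Sdhd rose, Atp5c1, Atp5h, Atp5k and Sdha did not pass, and Atp5g2 and Atp5l were not tested. No other member that rose was among the 8, and members without a matched promoter were not searched. A match describes these letters only.

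Sequence shared with other transcripts was measured for every member. Each 51-base window of a member's representative transcript, the length of a read, was compared with GENCODE M21 transcripts of other genes, on both strands. Atp5g2, a gene for the c ring of ATP synthase, shared 87.4% of its windows, and had 1 to 6 reads per library. Atp5l, the g subunit, shared 84.8% and had 2 to 9 reads. Cox7c, a complex IV subunit, shared 52.9% and had 12 to 29 reads. Of the 50, 9 shared at least 25% of their windows and 23 shared none. The other 6 were Atp5h (46.8%), Uqcrb (42.5%), Atp5f1 (38.3%), Atp5o (33.4%), Cox5a (31.4%) and Cox5b (25.5%), whose control means ran from 480 (Cox5b) to 4094 (Atp5o) normalized counts. Values of these 9 are uncertain where reads could be split with another gene, and the part of shared sequence in their counts was not tested. Not all sharing is with pseudogenes: Cox5b shared its windows with Gm11273 and Uqcrc2 with Pdzd9, which are not annotated as such. Among the called members, Uqcrb is the one above 25%, with Uqcrc2 at 24.8%. How reads with several matches were counted is not given in the sources used here.

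**Figure D5:**
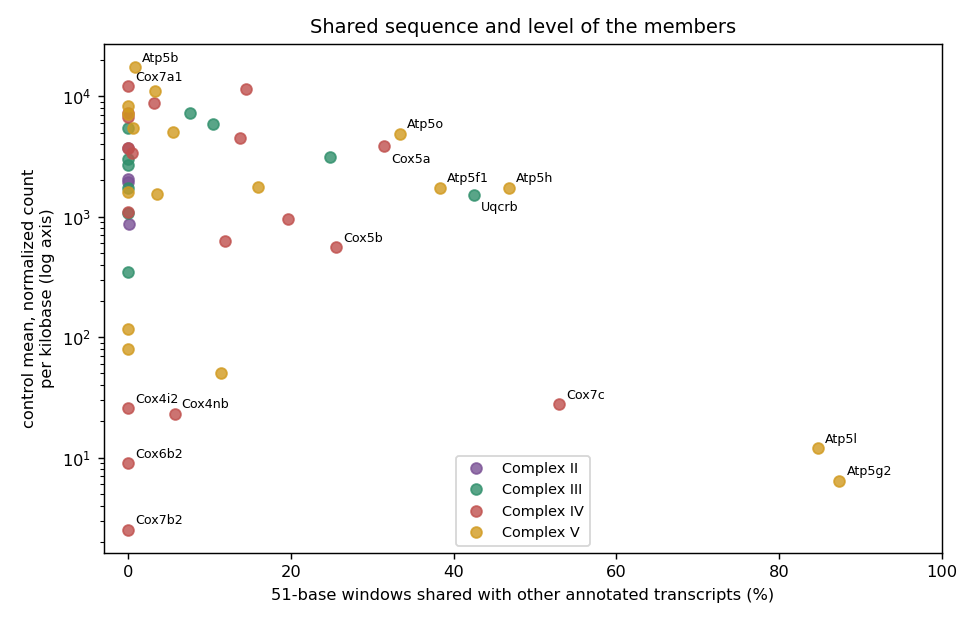
Share of each member's 51-base windows that also occur in other annotated transcripts, in percent, against its mean normalized count per kilobase in 4 controls on a log axis, coloured by complex; Cox8c, with no reads, is left out. The members above 50%, Cox7c, Atp5l and Atp5g2, lie at the bottom of the plot beside the tissue-restricted forms.

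Of genes that work with these complexes, Atpif1, the inhibitor that keeps ATP synthase from running in reverse, rose most. It stood at 543, 725, 628 and 627 in controls and at 1219, 1378 and 1620 in knockouts. The groups did not overlap, and the log2 fold change was 1.15 (SE 0.11, adjusted p 3.97e-06). It passed in all 23 alternative fits, at 0.87 to 1.29. It was the only one of 11 tested partner and additional subunit genes to pass, beside 42.6% of all genes tested. The others included the phosphate carrier Slc25a3 at -0.13 (SE 0.09, adjusted p 0.253), the heart ADP/ATP carrier Slc25a4 at 0.16 (SE 0.13, adjusted p 0.356), cytochrome c, Cycs, at -0.04 (SE 0.13, adjusted p 0.837) and Ndufa4, now counted with complex IV, at 0.15 (SE 0.12, adjusted p 0.342). These 4 were read out after their values were seen.

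Of the assembly factors of complexes II to V, 29 were tested, and of these 3 rose and 1 fell, with a median log2 fold change of 0.01. Over all genes tested 20.8% rose and 21.8% fell. The complex III factor Ttc19 fell from 317, 338, 353 and 384 to 225 to 281 (log2 fold change -0.49, SE 0.09, adjusted p 0.000892). The complex IV factor Coa5, listed as 6330578E17Rik, rose from 882 to 1039 in controls to 1241 to 1484 in knockouts (0.47, SE 0.09, adjusted p 0.000655). Cox18, which inserts a complex IV subunit into the membrane, rose from 55.5 to 75.7 to 84.2 to 98.2 (0.54, SE 0.12, adjusted p 0.00313). In these 3 the groups did not overlap. Surf1, named after its values were seen, rose by 0.31 (SE 0.11, adjusted p 0.0359).

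No member passed the test of a genotype by sex interaction, for which edgeR called 27 genes in all. Of the 45 members, 1 had an unadjusted p under 0.05. This was Cox5b, with an interaction of 1.42 on the log2 scale (SE 0.35, p 0.0014, adjusted p 0.207). Cox5b encodes a subunit on the matrix side of complex IV. Its normalized count was 736 in control F1, 687 in knockout M1 and 809 in knockout M2, and 320 to 481 in the other 7 libraries. High values thus occurred in both groups and both sexes.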

How the data were processed

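RNA-seq was measured in 10 left atrial libraries, 4 control and 6 knockout, as single-end reads of 51 bases. The protocols name both an mRNA kit and ribosomal depletion of total RNA, and globin depletion. The submitters' processing notes name FastQC, TopHat2 2.0.11, featureCounts, DESeq2 and build mm10. The deposited table holds read counts per gene, a normalized signal, and the authors' log2 fold changes and adjusted p-values. Within a library, the deposited normalized signal is the count over a constant size factor, so the unit of the "normalized count" is reads. Totals of 5701670 to 7697556 counts set the precision. Counts were tested with edgeR 4.0.16 (R 4.3.3): filterByExpr, TMM factors, quasi-likelihood F test, control against knockout without covariates, Benjamini-Hochberg over 13191 genes, threshold 0.05. A standard error is the fold change divided by the root of F. Isoform ratios used counts in a two-sided exact permutation test. Levels per kilobase divide by the length of a GENCODE M21 transcript. Alternatives were other scalings and filters, DESeq2 1.42.0, limma-voom (limma 3.58.1), sex as covariate, a replicate block, each sex alone, length and GC offsets (mgcv 1.9.3), a test against a fold of 1.2 and leaving out each library. The fit was tested on simulated data.

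The members, gene lists and tests were chosen with earlier results of these data known. Named genes were Tbx5, every member past the threshold, the complex IV isoforms, the core subunits of each complex, the lowest and highest member of each complex, and in each gene list those past the threshold (at most 3). Replicate numbers did not pair libraries across groups. The labels name a separate animal per library by sex and number. Promoter sequences are from RefSeq.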

Additional observations from a re-analysis of the deposited data

Results flagged for a closer look

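In 96 groups of libraries examined (45 members and 3 isoform ratios in 2 groups), 2 held a library far from the others of its group; chance alone gives about 5%. Atp5s, the coupling factor B gene, stood at 99.1 normalized counts in control M2 and at 135 to 139 in the other 3 controls. The Cox8b to Cox8a log2 ratio was 2.40 in control F1 and 2.01 to 2.06 in the other 3 controls.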

How the results depend on the processing

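With TMM, 5622 genes, 9 higher and 3 lower members passed. The number of genes fell to 2061 with male libraries only and 3592 in the test against a fold of 1.2. Higher members numbered 16 with library size only, 1 with male libraries only, 4 with female libraries only and 3 against a fold of 1.2. Lower members numbered 1 with library size only, 1 with male libraries only, 1 against a fold of 1.2 and 12 with length and GC offsets. Each single-sex fit held 2 controls and 3 knockouts, and with female libraries only 4957 genes passed. The cause of these differences was not tested. Leaving out 1 library at a time gave 4709 to 6085 genes, 6 to 9 higher members, 2 to 4 lower members, and differences in log2 ratio of -0.79 to -0.60 for Cox6a2/Cox6a1, -0.71 to -0.62 for Cox7a1/Cox7a2 and -0.21 to -0.05 for Cox8b/Cox8a. The adjusted p for Cox6a2/Cox6a1 was 0.0536 without control M1 and without control F1 (exact permutation test), and the cause was not tested. Interaction calls ranged from 7 to 77 around 27, the highest without knockout M3. Numbers shared between groups did not pair libraries: their deviations correlated at -0.04, 0.17, -0.13 and -0.05, and 1 of 4 matched best with its own number. With the replicate block 5411 genes, 6 higher and 7 lower members passed, and the members' median was -0.01. The labels F3 and M3 occur among knockouts only, so those libraries add nothing to the genotype effect in that fit. Its added lower calls were Cox8b (-0.38), Sdhc (-0.32), Cox6a2 (-0.31) and Sdha (-0.27), while Cox6b1, Uqcrb and Uqcrc2 no longer passed. Leaving out members with at least 25% shared windows, added after seeing the data, gave 8 higher and 3 lower; differences of fold changes with offsets were added too.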
